A study of Mus musculus with 78 samples.

Results

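FKBP1A and NENF are 2 of the 2755 genes counted in mouse liver after dichloroacetic acid (DCA) in the drinking water, and 2 of the 2205 genes of the filtered table that were tested. They were chosen by their measured values: both had lower counts than age-matched controls after 10 and 32 weeks of continuous DCA and higher counts after 78 weeks. Those 3 comparisons are therefore given below as a description, with no test, and members are tested only in comparisons, and in relations among libraries, that the choice did not use. FKBP1A is the mouse gene Fkbp1a (ENSMUSG00000032966), on the plus strand of chromosome 2 from 151542483 to 151561692, and NENF is Nenf (ENSMUSG00000037499), on the minus strand of chromosome 1 from 191306789 to 191318194 (mm10). Both passed the filter on low counts.

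The animals were male B6C3F1 mice, a hybrid strain that forms liver tumours readily, aged 4 weeks at the start. They drank water with 3.5 g/L DCA or water without it, and archived liver fixed in formalin and embedded in paraffin was collected at 10, 32, 57 or 78 weeks. DCA is a by-product of water chlorination and inhibits pyruvate dehydrogenase kinase. RNA was counted with TempO-Seq, in which pairs of short probes are ligated on the transcript, so that a count depends on the probe as well as on the RNA and levels were not compared between genes.

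Groups are named by treatment and week of collection. Control-10 (4 libraries), Control-32 (6), Control-57 (6) and Control-78 (6) drank no DCA. S1 mice had 10 weeks of DCA and then plain water, collected at the end of exposure (S1-10, 6 libraries) or at 32 (S1-32, 6), 57 (S1-57, 6) and 78 weeks (S1-78, 6). S2 mice had 32 weeks of DCA, collected at once (S2-32, 6) or at 78 weeks (S2-78, 4). S3 mice had 57 weeks, collected at once (S3-57, 5) or at 78 weeks (S3-78, 4), and Direct-78 mice had DCA for all 78 weeks (3). These are the 68 of 78 libraries that the authors kept, 1 library a mouse.

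FKBP1A encodes FKBP12, a small peptidyl-prolyl isomerase. It binds the drugs FK506 and rapamycin, whose complexes with it block calcineurin and the kinase complex mTORC1. It also sits on type I receptors of the TGF-beta and BMP families and on calcium release channels, and in hepatocytes its hold on the BMP receptor ALK2 restrains hepcidin, the iron hormone. NENF encodes neudesin, a secreted protein of the membrane-associated progesterone receptor (MAPR) family that binds haem and acts on neurons as a neurotrophic factor. Mouse chromosomes 10, 14 and 16 each carry a processed pseudogene of Fkbp1a, 3 in all. Whether the FKBP1A probes or reads also match these copies could not be checked, so its counts are uncertain in that respect.

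Depth differed between groups. The kept libraries held 541245 to 4285848 counts each, with a median of 2162678. The 3 Direct-78 libraries were the shallowest, at 541245, 671116 and 699825 counts, and every Control-78 library lay at 2098777 or above. Levels are given as CPM, the usual count scaled by the effective size of its library, which is the total multiplied by its TMM factor. Floors and counting intervals cover counting error only, since the reads carry no molecular identifiers.

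Several libraries stood apart from the rest. In Control-10 mouse 68, NENF was at 216.5 CPM against 20.1 to 29.3 in the other 3 libraries of that group. Control-32 mouse 73, with 721372 counts, had 0 counts of FKBP1A, which allows up to 4.42 CPM (a floor of 3 counts in that library). Pancreas genes on the panel summed to 22133 CPM in S1-78 mouse 36, 7981 in S2-78 mouse 47, 4568 in S1-10 mouse 17 and 2502 in S1-32 mouse 19, against 261 or less in every other kept library. S1-78 mouse 36 was also the highest kept library in brain and muscle markers (2357 CPM, others 159.4 or less) and in stellate cell and fibroblast markers (1665 CPM, others 966.0 or less). Mouse 68 also stood apart in cell markers, as given below with the hepatocyte sums. Changes of FKBP1A and NENF that turned sign or moved by over 1.5 times without one of these libraries are given with and without it.

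FKBP1A was scarce after 10 weeks of DCA. In Control-10 it stood at 65.5, 4.31, 19.5 and 5.17 CPM (23.6 ± 28.8, SD, n = 4), and in S1-10 it ranged from 1.84 to 6.66 CPM around a median of 2.90 (3.56 ± 1.80, SD, n = 6), which is 4 to 11 counts a library. The groups overlapped, with 4 of 6 S1-10 libraries below every control. At 32 weeks Control-32 ranged from 0 to 64.4 CPM (median 30.6, 30.1 ± 27.8, SD, n = 6) and S2-32 from 0.656 to 12.9 CPM (median 7.48, 6.90 ± 4.22, SD, n = 6). These groups overlapped fully at the low end, since 2 of the 6 controls had less than 4 CPM, while the other 4 controls spread from 12.5 to 64.4 CPM.

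At 57 weeks the FKBP1A levels of exposed and control liver lay in the same range. Control-57 held 10.1 to 48.6 CPM (median 16.3, 20.8 ± 14.3, SD, n = 6) and the S3-57 libraries 31.2, 7.48, 31.6, 7.10 and 27.3 CPM (20.9 ± 12.6, SD, n = 5). At 78 weeks Control-78 held 6.71 to 34.2 CPM (median 13.1, 15.1 ± 9.73, SD, n = 6) and Direct-78 65.2, 21.6 and 118.9 CPM (68.6 ± 48.8, SD, n = 3). Of the Direct-78 libraries 2 lay above every control and the third lay inside the control range.

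After DCA was stopped, FKBP1A was low at 32 weeks and spread widely at 78 weeks. At 32 weeks it still overlapped with the controls, with 0 of 6 S1-32 libraries below every Control-32 library. S1-32 held 1.98 to 8.60 CPM (median 3.62, 4.15 ± 2.29, SD, n = 6), S1-57 2.37 to 47.3 CPM (median 17.2, 19.7 ± 16.6, SD, n = 6) and S1-78 2.75 to 22.99 CPM (median 6.59, 10.6 ± 9.20, SD, n = 6). S2-78 held 5.72, 6.37, 21.8 and 50.8 CPM (21.2 ± 21.1, SD, n = 4) and S3-78 13.3, 23.95, 85.8 and 25.1 CPM (37.1 ± 32.97, SD, n = 4). The high S2-78 value is mouse 47, which also carried pancreas genes, and the high S3-78 value is mouse 59.

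NENF followed the same outline with more counts behind it. In Control-10 it stood at 216.5, 28.9, 20.1 and 29.3 CPM (73.7 ± 95.3, SD, n = 4) and in S1-10 at 9.67 to 36.7 CPM (median 14.2, 17.9 ± 9.72, SD, n = 6). Apart from mouse 68 the controls lay inside the S1-10 range, since S1-10 mouse 18 stood at 36.7 CPM, while 5 of 6 S1-10 libraries lay below every control. Control-32 held 31.1 to 119.5 CPM (median 99.6, 84.8 ± 36.4, SD, n = 6) and S2-32 12.4 to 44.6 CPM (median 20.5, 24.1 ± 11.1, SD, n = 6), with 5 of 6 S2-32 libraries below every control.

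At 57 weeks NENF overlapped between groups, with 35.2 to 107.6 CPM in Control-57 (median 57.1, 59.6 ± 26.5, SD, n = 6) and 60.2, 38.4, 85.8, 49.7 and 100.8 CPM in S3-57 (66.98 ± 25.8, SD, n = 5). At 78 weeks the groups did not overlap. Control-78 held 20.2 to 81.8 CPM (median 32.4, 39.2 ± 22.0, SD, n = 6) and Direct-78 145.3, 144.4 and 156.8 CPM (148.8 ± 6.90, SD, n = 3), so that all 3 Direct-78 libraries lay above every control. This comparison chose the genes, and 24.4% of all genes were called in it. The share of all genes without overlap there is not given. Of the Direct-78 libraries that the authors left out, mice 61 and 63 lay above the controls and mouse 62 inside their range, as given below.

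In the stopped groups, S1-32 was low for NENF, at 10.3 to 26.7 CPM (median 19.6, 19.1 ± 5.41, SD, n = 6), and all 6 of its libraries lay below every Control-32 library. Control-32 was part of the choice of the genes, and edgeR called 642 of 2205 genes between these groups. The share of all genes without overlap is not given here either. S1-57 held 19.4 to 72.8 CPM (median 47.2, 44.5 ± 19.7, SD, n = 6) and S1-78 14.8 to 144.3 CPM (median 27.9, 52.1 ± 50.8, SD, n = 6). S2-78 held 17.9, 9.56, 74.8 and 128.4 CPM (57.7 ± 55.4, SD, n = 4) and S3-78 102.1, 71.9, 250.1 and 67.01 CPM (122.8 ± 86.3, SD, n = 4). The mice high in FKBP1A, S2-78 mouse 47 and S3-78 mouse 59, were also the highest of their groups in NENF.

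**Figure D1:**
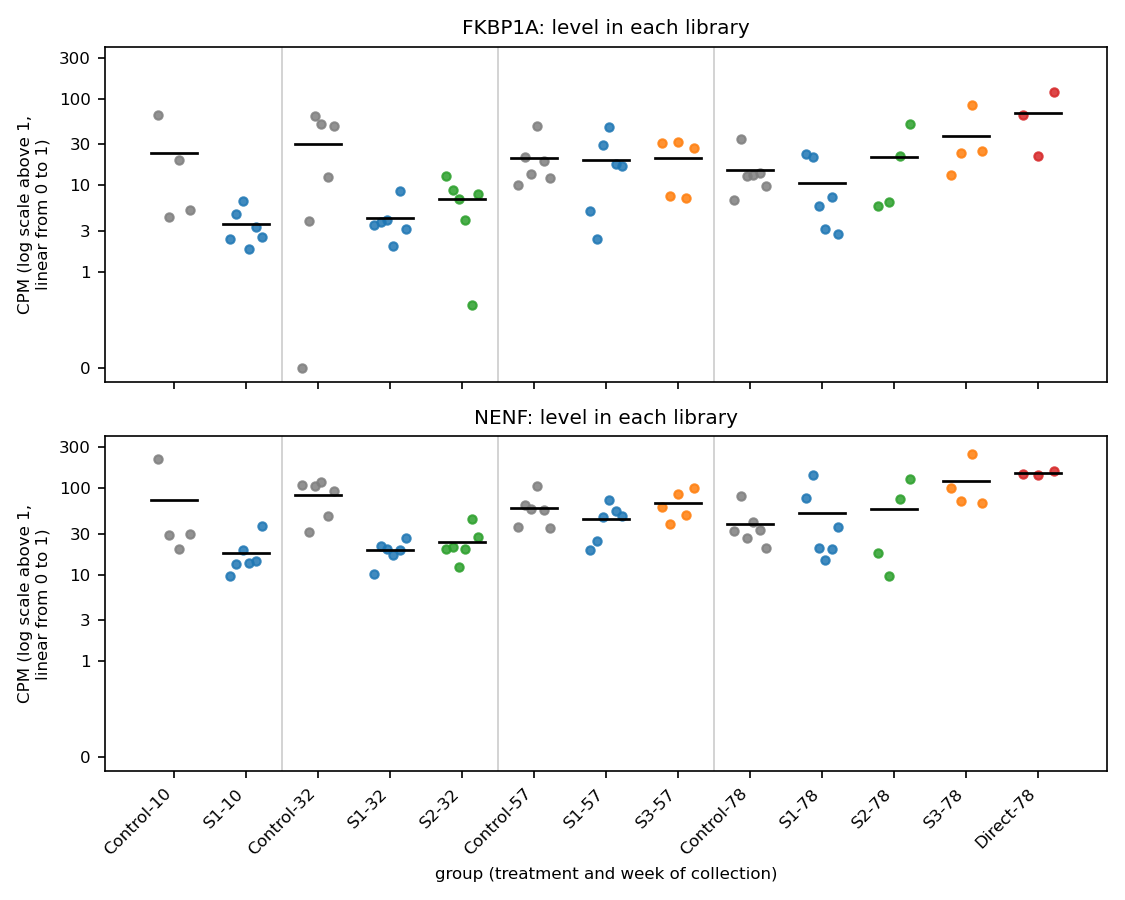
Level of FKBP1A (upper panel) and NENF (lower panel) in each of the 68 kept libraries, in CPM on an axis that is logarithmic above 1 and linear from 0 to 1, by group; points are libraries and bars are group means. NENF in the 3 Direct-78 libraries sits between 144.4 and 156.8 CPM, above all 6 Control-78 libraries, while FKBP1A overlaps between these groups. The comparison of these groups was used to choose the genes.

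Ordered by mean, both genes began with S1-10, S1-32 and S2-32 and ended with Control-10, Control-32, S3-78 and Direct-78. Between these, FKBP1A ran S1-78, Control-78, S1-57, Control-57, S3-57 and S2-78, and NENF ran Control-78, S1-57, S1-78, S2-78, Control-57 and S3-57. The place of Control-10 rests on mouse 68, at 65.5 CPM of FKBP1A and 216.5 CPM of NENF. Control-10 mice 69, 71 and 72 held 4.31, 19.5 and 5.17 CPM of FKBP1A and 28.9, 20.1 and 29.3 CPM of NENF. The extreme means differed 19.2-fold for FKBP1A and 8.32-fold for NENF. No step between neighbours in either order was larger than the spread within groups (0 of 12 neighbouring pairs for each gene, against the root mean square of the 2 SDs). Sorting by mean keeps such steps small, and the means include those that chose the genes, so this is a description only.

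The 3 comparisons that chose the genes gave these changes in edgeR's quasi-likelihood fit, as log2 fold change ± SE. FKBP1A stood at −2.71 ± 0.81 in S1-10, −2.10 ± 0.73 in S2-32 and 2.20 ± 0.82 in Direct-78 against controls of the same week. NENF stood at −2.04 ± 0.57, −1.81 ± 0.52 and 1.93 ± 0.60 in the same order. No test is given, and in bulk liver fewer cells that express a gene and less RNA per cell cannot be told apart.

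The 10-week and 78-week sizes each have a limit. Without Control-10 mouse 68 the S1-10 change was −1.42 for FKBP1A and −0.55 for NENF. In Direct-78, group and depth cannot be told apart: with the log2 total count as a covariate the change was 0.11 for FKBP1A and −0.58 for NENF, and with detected genes as the covariate NENF stood at 1.01. With every kept library thinned to 541245 counts the Direct-78 changes were 2.01 and 2.78.

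Another 4 groups share controls with those comparisons and are also described with no test, as log2 fold change ± SE against controls of the same week. FKBP1A stood at −2.86 ± 0.75 in S1-32, −0.50 ± 0.70 in S1-78, 0.50 ± 0.77 in S2-78 and 1.31 ± 0.76 in S3-78. NENF stood at −2.14 ± 0.53, 0.42 ± 0.51, 0.57 ± 0.56 and 1.66 ± 0.56 in the same order. The values farthest from 0 were those of both genes in S1-32, 22 weeks after DCA ended, and of NENF in S3-78, 21 weeks after it ended. Many other genes changed in these 2 groups. Of 2205 genes, edgeR called 262 higher and 380 lower in S1-32, and 129 and 165 in S3-78. In S1-78 it called 22 and 18, and in S2-78 18 and 18.

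Most of these values depend on single libraries, on the depth covariate or on both. Without mouse 47 the S2-78 values turned to −0.39 for FKBP1A and −0.19 for NENF. Over all libraries left out in turn, the S2-78 values reached 0.94 and 0.96 at the other end, both without Control-78 mouse 86. With all 78 libraries NENF in S2-78 stood at 1.22. In S1-78, NENF ran from −0.21 without mouse 32 to 0.77 without Control-78 mouse 86. FKBP1A there ran from −0.93 without mouse 31 to −0.09 without Control-78 mouse 86, and was −0.30 without mouse 36. In S3-78, FKBP1A ran from 0.47 and NENF from 1.05 without mouse 59 to 1.74 and 2.03 without Control-78 mouse 86.

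The 2 ways of treating depth moved NENF in opposite directions in all 4 groups, and FKBP1A in S1-32 and S2-78. With the log2 total count as a covariate FKBP1A stood at −2.13 in S1-32, −0.86 in S1-78, −0.44 in S2-78 and 0.22 in S3-78. NENF stood at −1.13, −0.14, −0.45 and 0.39 in the same order. With every kept library thinned to 541245 counts, FKBP1A stood at −4.23, −0.81, 0.65 and 1.05 and NENF at −2.30, 0.90, 0.87 and 2.31, each on the same side of 0 as reported.

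The comparisons free of the choice ask whether either gene differed after 57 weeks of DCA, 47 weeks after a 10-week exposure, or with the length of exposure among mice collected at the same week. In the last of these, mice with a longer exposure also had fewer weeks without DCA. Length of exposure and time since exposure therefore cannot be told apart there. None of the 12 tests passed (6 comparisons for each gene; a gene passed where its adjusted p did not exceed 0.05 and its fold change was above 1.5, by edgeR's quasi-likelihood test with Benjamini-Hochberg adjustment over 2205 genes). A p that misses the threshold does not show that levels were alike, so the 95% interval of each log2 fold change is given.

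In S3-57 against Control-57, FKBP1A changed by 0.01 (interval −1.44 to 1.46, edgeR adjusted p = 0.999, 3 of 5 libraries above the control mean) and NENF by 0.17 (−0.89 to 1.23, edgeR adjusted p = 0.919, 3 of 5). Across all genes in that comparison 2.86% were called higher and 3.54% lower. Its calls split into 63 higher and 78 lower with TMM factors, and 90 and 67 with RLE factors. With the log2 total count as a covariate both genes changed sign, to −0.81 for FKBP1A and −0.82 for NENF, again without a call (edgeR adjusted p = 0.537 and 0.315; 0.537 to 1 and 0.315 to 0.972 over the alternatives). Leaving out S3-57 mouse 51 turned FKBP1A to −0.18, and leaving out S3-57 mouse 54 turned NENF to −0.06. After 57 weeks both genes thus lay near their controls. The intervals still allow a change of more than 2-fold in either direction for FKBP1A and more than 2-fold upward for NENF.

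In S1-57 against Control-57, FKBP1A changed by −0.09 (−1.48 to 1.29, edgeR adjusted p = 0.972, 2 of 6 libraries above the control mean) and NENF by −0.43 (−1.44 to 0.59, edgeR adjusted p = 0.791, 1 of 6). In this comparison 1.59% of genes were called, 8 higher and 27 lower with TMM factors, 11 and 17 by RLE and 13 and 15 by upper-quartile scaling. FKBP1A stood at 0.0392 by RLE and 0.0605 by upper-quartile scaling, so its sign there depends on the scaling. The values were −0.68 for FKBP1A and −0.92 for NENF with the log2 total count as a covariate (edgeR adjusted p = 0.660 and 0.280). Between S3-57 and S1-57 the change was 0.11 for FKBP1A (−1.35 to 1.56, edgeR adjusted p = 0.999, 3 of 5 above the S1-57 mean) and 0.60 for NENF (−0.46 to 1.66, edgeR adjusted p = 0.983, 4 of 5), and −0.14 and 0.10 with the log2 total count as a covariate. There edgeR called 0 of 2205 genes (0%), where 111 had an unadjusted p below 0.05, and DESeq2 called 7.

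Among mice collected at 78 weeks, the comparisons by length of exposure gave larger values for S3-78. Against S1-78, FKBP1A stood 1.81 higher in S3-78 (0.28 to 3.34, edgeR adjusted p = 0.146), with 3 of 4 S3-78 libraries above every S1-78 library. NENF stood 1.24 higher (0.13 to 2.35, edgeR adjusted p = 0.169), with 4 of 4 libraries above the S1-78 mean and 1 of 4 above every S1-78 library. Both intervals, which are not adjusted for the number of genes, lie above 0 while neither gene passed after adjustment. In the same comparison 520 of 2205 genes had an unadjusted p below 0.05 by edgeR's quasi-likelihood test, in either direction. In that comparison 3.72% of genes were called, 23 higher and 59 lower with TMM factors and 25 and 36 with upper-quartile factors. Single libraries and the depth covariate moved both values. They fell to 1.07 for FKBP1A (edgeR adjusted p = 0.591) and 0.53 for NENF (edgeR adjusted p = 0.680) with the log2 total count as a covariate. Without S3-78 mouse 59, FKBP1A fell to 0.98 (edgeR adjusted p = 0.521) and NENF to 0.63 (edgeR adjusted p = 0.573), while NENF passed without S1-78 mouse 32 (1.88, edgeR adjusted p = 0.0298). Over the settings other than leaving out 1 library the adjusted p of NENF ran from 0.0818 to 0.680.

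Neither S2-78 comparison showed a call for these genes. S2-78 against S1-78 gave 1.00 for FKBP1A (−0.55 to 2.54, edgeR adjusted p = 0.803, 2 of 4 above the S1-78 mean) and 0.15 for NENF (−0.98 to 1.28, edgeR adjusted p = 0.968, 2 of 4). Only 0.0907% of genes were called there, namely CYP4A10 and CYP4A14, fatty acid hydroxylases, picked out after their values were seen. FKBP1A stood at 0.42 and NENF at −0.31 with the log2 total count as a covariate. Without mouse 47 alone the values were 0.13 for FKBP1A and −0.59 for NENF, and without S1-78 mouse 36 NENF stood at 0.0634. Other settings gave larger values: 1.42 for FKBP1A without S1-78 mouse 31, and for NENF 0.80 without S1-78 mouse 32 and 0.83 with all 78 libraries. Without the 4 libraries with pancreas genes both signs turned, to −0.07 for FKBP1A and −0.67 for NENF. S3-78 against S2-78 gave 0.81 for FKBP1A (−0.89 to 2.52, edgeR adjusted p = 0.671, 3 of 4 above the S2-78 mean) and 1.09 for NENF (−0.16 to 2.34, edgeR adjusted p = 0.380, 4 of 4). In that comparison 1.63% of genes were called, 9 higher and 27 lower with TMM factors and 18 and 31 with upper-quartile factors. Without S3-78 mouse 59 FKBP1A stood at −0.02 and NENF at 0.48, and without S2-78 mouse 47 they stood at 1.70 and 1.85, again without a call (edgeR adjusted p = 0.253 and 0.0840).

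**Figure D2:**
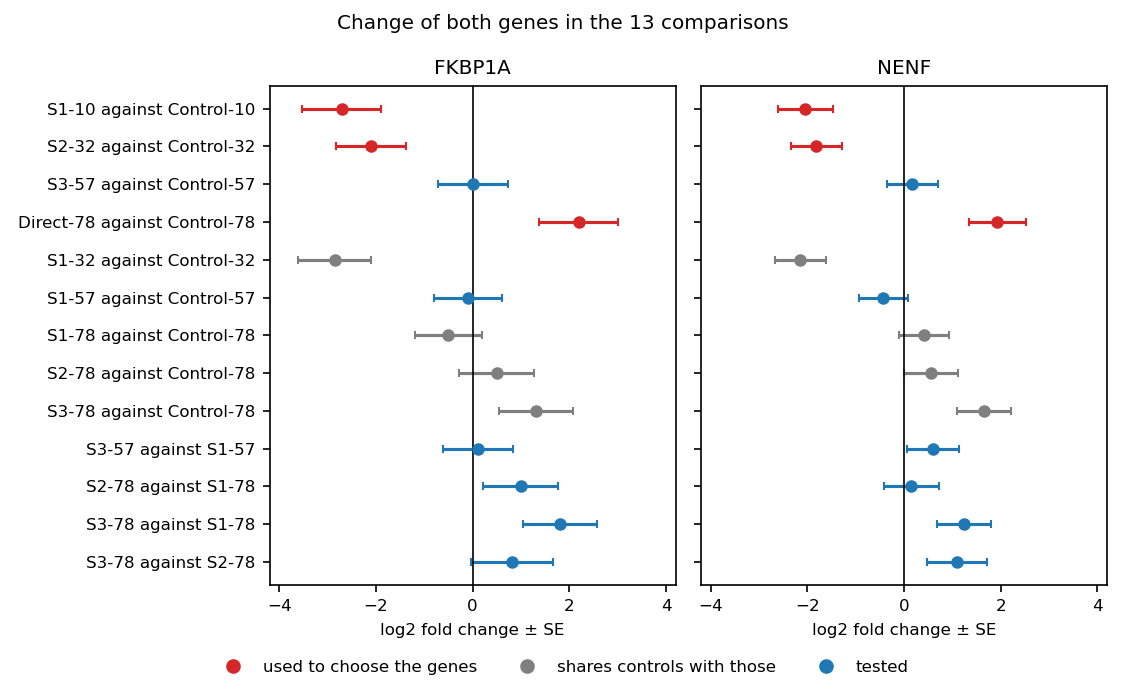
Log2 fold change ± SE of FKBP1A and NENF in the 13 comparisons, coloured by whether the comparison chose the genes, shares controls with one that did, or was tested. The values used to choose the genes run from −2.71 to 2.20, and the tested values from −0.43 to 1.81.

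Both genes were related to depth within the groups that the choice did not use. These are 7 groups with 37 libraries, an alternative chosen after seeing the data (S1-32, S1-57, S1-78, S2-78, S3-57, S3-78 and Control-57). After the group mean was taken out, log2 CPM of NENF fell with log2 total count (Pearson r = −0.40, permutation p = 0.0308, adjusted p = 0.0319 over 3 relations; Spearman rho = −0.41, permutation p = 0.0285), with r = −0.55 without the 2 libraries farthest from the median depth, S1-57 mouse 28 and S2-78 mouse 45. For FKBP1A r was −0.44 (permutation p = 0.0319, adjusted p = 0.0319), rho −0.37 (permutation p = 0.0510), and r −0.42 without the same 2 libraries. Over all 68 libraries, as a description, r was −0.47 for NENF and −0.05 for FKBP1A, and −0.48 and −0.27 without Control-32 mouse 73 and S1-57 mouse 28. Shallow libraries thus tended to have a higher NENF level inside a group, for FKBP1A this was weaker over all libraries, and the part of depth in the Direct-78 values could not be told apart from the treatment.

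**Figure D3:**
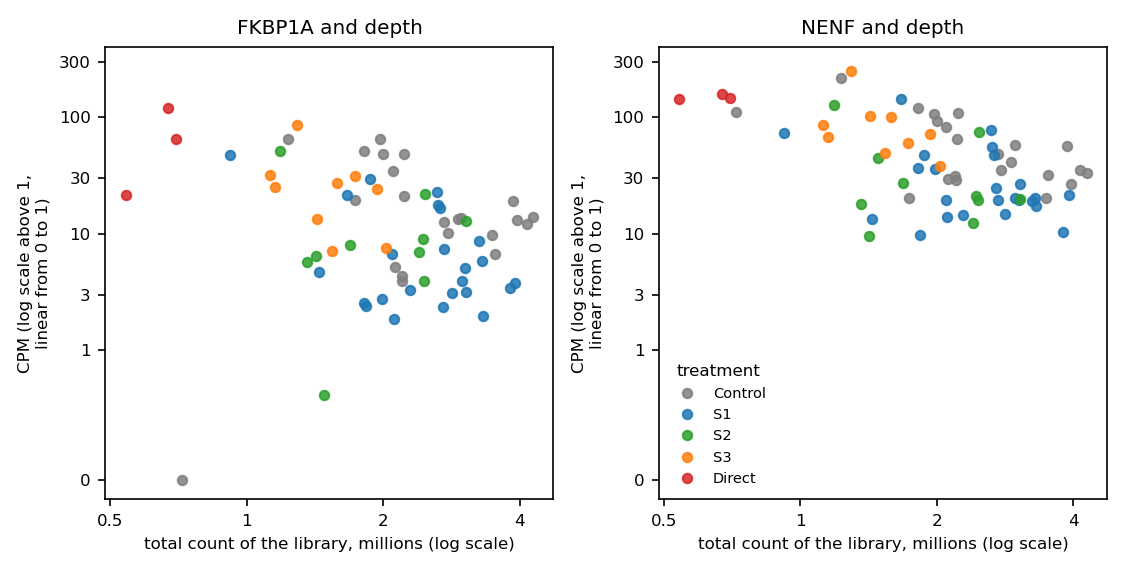
FKBP1A and NENF in CPM (axis logarithmic above 1, linear from 0 to 1) against the total count of each of the 68 kept libraries (logarithmic axis), coloured by treatment. The 3 Direct-78 libraries, at 541245 to 699825 counts, are the shallowest shown.

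The 2 genes varied together among mice of the same group. In the 7 groups that the choice did not use, with group means taken out, Pearson r was 0.794 over 37 libraries (2-sided permutation within groups, p = 2e-05, adjusted p = 6e-05 over 3 relations) and Spearman rho was 0.810 (permutation p = 2e-05). Without the 2 libraries farthest from the FKBP1A median, S1-57 mouse 26 and S2-78 mouse 47, r was 0.776, and with the log2 total count taken out within groups it was 0.751. By group r ran from 0.09 in S1-32 to 0.96 in S2-78. Over all 68 libraries, as a description with no test, r was 0.542 and rho 0.605, and r was 0.621 without Control-32 mouse 73 and Control-10 mouse 68. Among the groups of 6 libraries, S2-32 alone had an r below 0 (−0.68).

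Other genes of the panel had such a relation too. Of the 2204 other tested genes, 53 (2.40%) had an r with FKBP1A at least as high in the 7 groups, and 58 (2.63%) with NENF. Over all 68 libraries these were 237 (10.8%) and 235 (10.7%). The relation is thus not particular to this pair, and no property that libraries of a group share was tested beyond the total count.

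**Figure D4:**
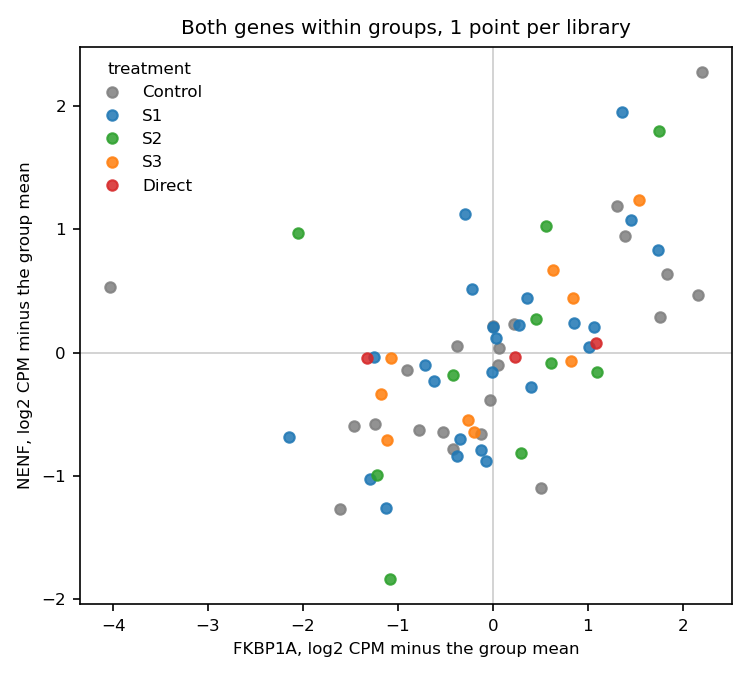
NENF against FKBP1A in log2 CPM minus the group mean, 1 point for each of the 68 kept libraries, coloured by treatment. Libraries high in one gene for their group tend to be high in the other (Pearson r = 0.542).

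The calls over all genes in the 3 comparisons that chose the members are given as a description. In S1-10 4.40% of the 2205 genes were called lower and 1.09% higher, in S2-32 7.21% lower and 3.45% higher, and in Direct-78 18.7% lower and 5.71% higher. Outside the 2 members, the gene called lower, lower and higher in that order was EIF4EBP1, whose product restrains cap-dependent translation until mTORC1 phosphorylates it. Without Control-10 mouse 68 no gene was called in S1-10 by edgeR, against 121 with it, so that no gene has all 3 calls without that library. No call of the 2 members is given for these comparisons, since their values there chose them. Over all genes, 497 (22.5%) had the same 3 signs, called or not. The opposite calls were found in 1 gene, INSIG1, a brake on sterol synthesis, which was picked out after its values were seen. Another 36 genes (1.63%) had the 3 signs and 2 of the 3 calls, and the nearest to the missing call was LEPREL2, a collagen prolyl hydroxylase, with −1.34, −1.003 and 1.12 and an edgeR adjusted p of 0.0610 in S2-32.

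The scaling bears on these counts. Direct-78 calls split into 126 higher and 413 lower with TMM factors, 221 and 256 by RLE, and 233 and 236 by upper-quartile scaling. The median log2 fold change of all genes there was −0.33, and it shifted by 0.40 with RLE and 0.45 with upper-quartile factors. FKBP1A in Direct-78 shifted with it, from 2.20 to 2.66 and 2.71, and NENF from 1.93 to 2.33 and 2.37. In the other comparisons the median shifted by over 0.1 in S2-32 (−0.11 with RLE, −0.21 with upper-quartile factors), S1-10 (−0.13 with upper-quartile factors), S1-57 (0.11 and 0.12), S2-78 against S1-78 (0.14 and 0.11) and S3-78 against S1-78 (0.11 and 0.17).

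Over the 13 group means of log2 CPM, FKBP1A and NENF had a Pearson r of 0.947 and a Spearman rho of 0.896, as a description with no p, since the means chose the genes. NENF ranked 23 among 2204 genes by likeness to FKBP1A, and FKBP1A ranked 17 by likeness to NENF. The 5 genes most like FKBP1A were CIAPIN1, an iron-sulphur cluster assembly factor (r = 0.985), HSPA1L, a heat shock chaperone (0.978), MAT2A, which makes S-adenosylmethionine (0.970), MDM2, a ubiquitin ligase (0.967), and H2AFZ, a histone variant (0.966). Those most like NENF were 1810009A15RIK (0.975), DRD2, a dopamine receptor (0.970), DAXX, a histone chaperone (0.969), EIF4EBP1 (0.966) and SPDEF, a transcription factor (0.966). The choice of measure decides these names: Spearman over the means or Pearson over the libraries kept 1 of the 5 for FKBP1A, and 2 and 0 for NENF, while 73 and 82 genes had an r above 0.9 with FKBP1A and NENF.

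Genes of the pathways around the 2 proteins were taken from 10 fixed lists with 144 other genes, of which 45 were tested. Called genes numbered 0 higher and 3 lower in S1-10, 0 and 4 in S2-32, 3 and 2 in S3-57, and 1 and 12 in Direct-78. That is 6.67%, 8.89%, 11.1% and 28.9% of the list genes, beside 5.49%, 10.7%, 6.39% and 24.4% of all genes. The median log2 fold change of these genes was 0.12, 0.01, −0.11 and −0.60 in that order, against −0.03, 0.05, 0.01 and −0.33 over all genes. Where a gene was called, all libraries of the exposed group lay on the side of the change from the control mean, except EIF4EBP1 in Direct-78 (2 of 3). No test of a list was made.

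Of the FK506-binding proteins, 3 relatives of FKBP1A were tested, and their list medians were −0.22, −0.46, 0.38 and −1.07 at 10, 32, 57 and 78 weeks of continuous DCA. FKBP5, a co-chaperone of steroid receptors induced by glucocorticoids, rose in S3-57 (1.67 ± 0.50, edgeR adjusted p = 0.0317) and stood at −0.84, 0.99 and 1.15 in the other 3 without a call by edgeR. It was called in Direct-78 by DESeq2 (1.47, DESeq2 adjusted p = 0.0487) and in S2-32 with only the 2 groups compared (0.92, edgeR adjusted p = 0.0209). The Direct-78 value was −0.00265 with the log2 total count as a covariate, and the S1-10 value −0.19 without Control-10 mouse 68. Its S3-57 value rests on mouse 51, without which it was 0.43 (edgeR adjusted p = 0.751). FKBP4, another co-chaperone of steroid receptors, fell in Direct-78 (−1.07 ± 0.35, edgeR adjusted p = 0.0235), a call lost with RLE (−0.76, edgeR adjusted p = 0.0714) and upper-quartile factors (−0.70, edgeR adjusted p = 0.106). It stood at 0.17, −0.46 and −0.77 in the other 3 without a call, and passed in S3-57 without mouse 50 (−1.001, edgeR adjusted p = 0.0357) or Control-57 mouse 84 (−0.93, edgeR adjusted p = 0.0292). FKBP14, a foldase of the endoplasmic reticulum, was called in none of the 4 (−0.22, −0.65, 0.38 and −1.28). Its Direct-78 value rests on 9 counts, all in mouse 66, without which the group is at 0 and edgeR called it lower (edgeR adjusted p = 0.00420). Without mouse 65 it was −0.56.

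Cyclophilins are the other large family of peptidyl-prolyl isomerases, and 5 were tested, with medians of 0.22, −0.66, −0.48 and −0.99. PPIB, which folds collagen in the endoplasmic reticulum, fell in S3-57 (−1.25 ± 0.31, edgeR adjusted p = 0.00743) and in Direct-78 (−1.44 ± 0.37, edgeR adjusted p = 0.00540), with every exposed library below every control. With upper-quartile factors the Direct-78 value missed the call (−1.01, edgeR adjusted p = 0.0647).

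The receptors and channels that FKBP12 binds were thinly covered, with 2 of 18 genes tested and medians of −0.37, −0.94, −0.51 and −0.17. TGFBR1, the type I TGF-beta receptor, fell in Direct-78 (−2.11 ± 0.33, edgeR adjusted p = 1.03e-05), from 215.7 to 49.9 CPM. The other tested partner went the other way there, above 0 without a call. At 10, 32 and 57 weeks both partners stood below 0 without a call. The 6 TGF-beta genes had medians of −0.09, −0.20, −0.63 and −1.41. Among them TGFBR2, the type II receptor, fell in S2-32 (−1.39 ± 0.47, edgeR adjusted p = 0.0465). SMAD3, a transcription factor activated by the receptor, had 0 counts in Direct-78 against 367 in Control-78 and was at least 19.3-fold lower (floor of 3 counts over the group, edgeR adjusted p = 5.27e-05).

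In the BMP-SMAD and hepcidin list 7 genes were tested, with medians of 0.67, 0.20, 0.36 and −1.20. BMP6, the ligand that drives hepcidin, had 0 counts in Direct-78 against 145 in Control-78 and was at least 7.62-fold lower (same floor, edgeR adjusted p = 0.00109). TMPRSS6, a protease that lowers hepcidin, fell in Direct-78 (−1.23 ± 0.40, edgeR adjusted p = 0.0226), and was not called with RLE (−0.83) or upper-quartile factors (−0.76). SMAD5, which carries the BMP signal, rose in S3-57 (0.89 ± 0.27, edgeR adjusted p = 0.0346). With all 78 libraries BMP6 turned to 0.75 in Direct-78 (edgeR adjusted p = 0.427) and SMAD3 stood at −1.17 (edgeR adjusted p = 0.215), so both bounds hold for the 3 kept libraries alone.

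The mTORC1 list was the best covered, with 11 genes tested and medians of −0.73, −0.07, 0.32 and 0.51. EIF4EBP1 fell in S1-10 (−1.74 ± 0.45, edgeR adjusted p = 0.0170) and S2-32 (−1.27 ± 0.41, edgeR adjusted p = 0.0368) and rose in Direct-78 (1.43 ± 0.48, edgeR adjusted p = 0.0264). Of the other regulators, RHEB, the GTPase that activates mTORC1, fell in S1-10 (−1.04 ± 0.27, edgeR adjusted p = 0.0170), AKT1, a kinase upstream, fell in S1-10 (−1.10 ± 0.33, edgeR adjusted p = 0.0331) and rose in S3-57 (1.02 ± 0.31, edgeR adjusted p = 0.0343), and TSC2, a brake on RHEB, fell in Direct-78 (−2.17 ± 0.46, edgeR adjusted p = 0.000974). Of the translation machinery, EIF4B fell in S2-32 (−2.03 ± 0.44, edgeR adjusted p = 0.00335), EIF4G1 in S3-57 (−0.71 ± 0.23, edgeR adjusted p = 0.0470) and Direct-78 (−1.25 ± 0.28, edgeR adjusted p = 0.00146), and RPS6 in Direct-78 (−1.28 ± 0.23, edgeR adjusted p = 0.000119). With the log2 total count as a covariate EIF4EBP1 turned to −0.53 in Direct-78 (edgeR adjusted p = 0.738). All S1-10 calls of this list ended without Control-10 mouse 68. There AKT1 stood at −0.20, EIF4EBP1 at −1.14 and RHEB at −1.04 (edgeR adjusted p = 0.874, 0.392 and 0.103). The 2 calcineurin and NFAT genes tested had medians of 0.39, 0.56, −0.04 and 0.76 and no call.

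Around NENF, 2 other genes of the list of MAPR proteins, cytochrome b5 and its partners were tested, PGRMC1 of the MAPR family and POR, which is not of that family, with medians of −0.01, 1.04, −0.66 and −1.37. PGRMC1, the haem-binding protein that names the MAPR family, fell in Direct-78 (−1.81 ± 0.53, edgeR adjusted p = 0.0123), from 1736 to 496.6 CPM, in the comparison where NENF had its highest level. In the other 3 it stood at 0.39, 0.97 and −0.74 without a call by edgeR. In S2-32 DESeq2 called it (0.97, DESeq2 adjusted p = 0.0404), as did edgeR without Control-32 mouse 74 (1.16, edgeR adjusted p = 0.0402). POR, the reductase that feeds microsomal cytochromes P450, stood at −0.42, 1.10, −0.57 and −0.94 without a call under any setting, and at −0.0961 in Direct-78 with the log2 total count as a covariate. The 6 genes of haem synthesis and breakdown had medians of 0.17, 0.07, 0.14 and −0.29. ALAS2, the erythroid enzyme that starts haem synthesis, fell in Direct-78 (−3.38 ± 0.72, edgeR adjusted p = 0.000944).

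Of the secreted neurotrophic factors 3 others were tested, with medians of 0.18, −1.02, −1.04 and −0.35. GDNF, the glial factor, fell in S2-32 (−4.62 ± 1.42, edgeR adjusted p = 0.0227) on 9 counts against 114, with 0 of 6 libraries below every control, and stood at −3.90, −1.04 and 1.86 in S1-10, S3-57 and Direct-78 without a call. The S1-10 value rests on Control-10 mouse 68, without which it was −0.35 (edgeR adjusted p = 0.967). It was called there by DESeq2 (−4.39, DESeq2 adjusted p = 0.0487) and with all 78 libraries (−5.30, edgeR adjusted p = 0.0241), which also called it in Direct-78 (3.89, edgeR adjusted p = 0.0348). CNTF, the ciliary factor, had 2 counts in Direct-78 against 177 in Control-78, a log2 ratio of −3.80 (95% counting interval −6.86 to −1.93, edgeR adjusted p = 0.0259), which turned to 0.87 with all 78 libraries (edgeR adjusted p = 0.409). In the other 3 it stood at 0.27, 1.54 and 0.14. BDNF, the brain-derived factor, had no call (0.18, −1.02, −1.96 and −0.35).

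Many of these list calls were not made again with 1 library fewer, or with depth in the fit, and most of the changes stayed about as large. Losses with 1 library left out were counted for each call and each library, so that 1 call can be counted several times. TGFBR2 in S2-32 alone gave 9. Of 65 such losses, 61 were of changes that stayed within 1.5 times of the reported log2 fold change. The other 4 were AKT1 (−0.20) and EIF4EBP1 (−1.14) in S1-10 without Control-10 mouse 68, FKBP5 in S3-57 without mouse 51, and FKBP4 in Direct-78 without mouse 66 (−0.64).

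Without Control-10 mouse 68 the S1-10 list calls fell from 3 to 0, with RHEB at −1.04 as before (edgeR adjusted p = 0.103), and without mouse 71 RHEB missed the call at −0.87 (edgeR adjusted p = 0.0629). In Direct-78, 1 of 13 list calls was made with the log2 total count as a covariate, where 11 genes were called in all against 539. Of the 12 others EIF4EBP1 changed sign, 6 stayed within 1.5 times of the reported change (among them PPIB at −1.60, FKBP4 at −1.14 and ALAS2 at −3.14), and 5 fell below that: TSC2 (−0.52), TMPRSS6 (−0.43), PGRMC1 (−0.78), EIF4G1 (−0.60) and TGFBR1 (−1.08). With all 78 libraries no list gene was called in S3-57 (edgeR adjusted p from 0.105 for PPIB to 0.675 for SMAD5), though all 5 changes stayed within 1.5 times of the reported ones (PPIB −1.49, EIF4G1 −0.97, FKBP5 1.38, AKT1 0.78 and SMAD5 0.63). EIF4B in S2-32 kept its call under the 12 alternative settings and without each library, whereas TGFBR2 lost it without any of 9 of the 12 libraries compared (S2-32 mice 37, 38, 39, 40 and 42, Control-32 mice 73, 75, 76 and 78; −1.49 to −1.14, edgeR adjusted p of 0.0604 to 0.144).

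The libraries whose removal ended the other list calls are these, with the range of edgeR adjusted p without each. In S1-10 AKT1 lost its call without S1-10 mouse 13, 14, 16 or 18 (0.0543 to 0.0667). In S2-32 EIF4EBP1 lost it without S2-32 mouse 37, 38, 39, 40 or 42 or Control-32 mouse 75, 76 or 78 (0.0554 to 0.0941), and GDNF without S2-32 mouse 37 or 40 or Control-32 mouse 75 (0.0502 to 0.0531). In S3-57 the calls of AKT1, EIF4G1, FKBP5 and SMAD5 each ended without mouse 51 (0.188, 0.197, 0.751 and 0.0618) and without several other libraries, while PPIB kept its call without each library. In Direct-78 EIF4EBP1, FKBP4, PGRMC1 and TMPRSS6 lost their calls without mouse 64 (0.112, 0.167, 0.0772 and 0.068) or 66 (0.179, 0.233, 0.0883 and 0.111), CNTF without mouse 65 or 66 (0.0872 and 0.11) and PPIB without mouse 66 (0.0582). EIF4EBP1 also lost it without Control-78 mouse 90 (0.0568) and TMPRSS6 without Control-78 mouse 85 (0.0606).

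The several other libraries in S3-57 were mouse 49 for AKT1, EIF4G1 and SMAD5, mice 53 and 54 for EIF4G1, and Control-57 mice 79, 81, 82, 83 and 84, each for at least 1 of the 4 genes, with edgeR adjusted p of 0.0539 to 0.231. TGFBR1, BMP6, SMAD3, TSC2, RPS6, EIF4G1 and ALAS2 in Direct-78 kept their calls without each library compared.

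**Figure D5:**
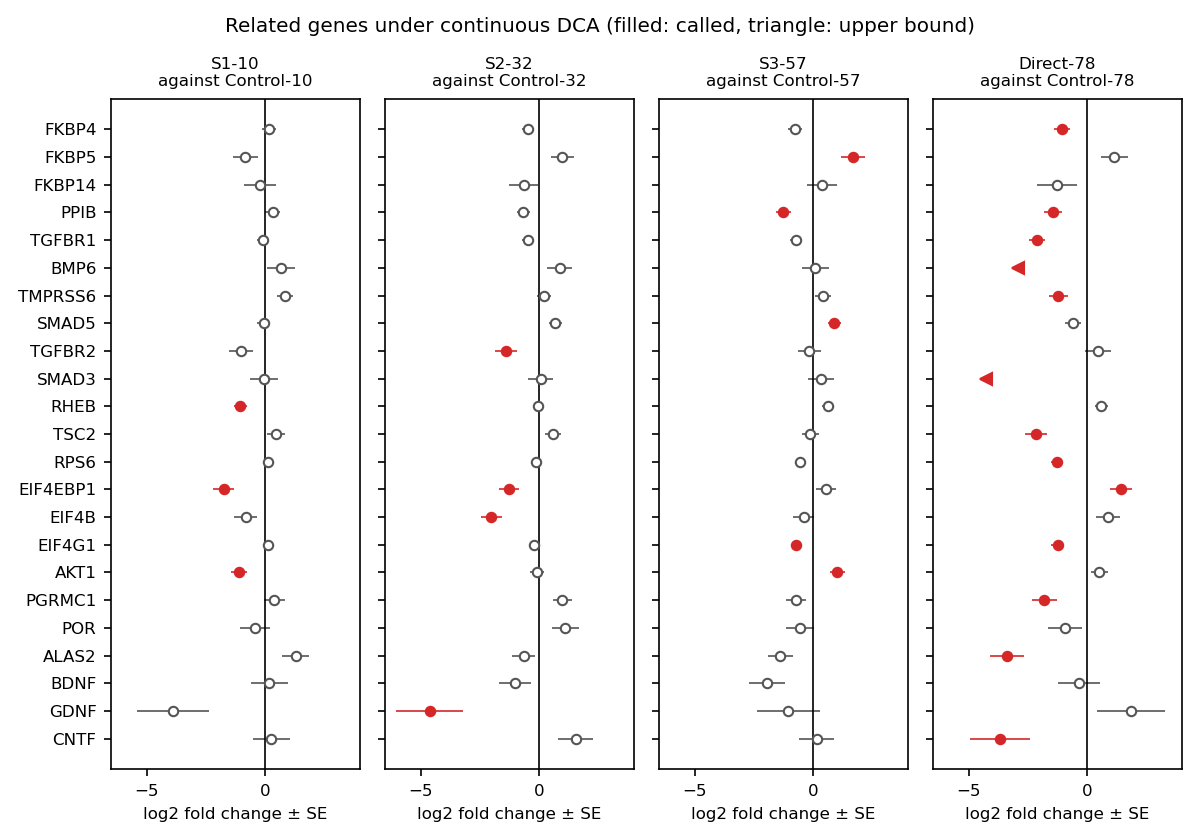
Log2 fold change ± SE of the list genes named in the text after 10, 32, 57 and 78 weeks of continuous DCA against controls of the same week, with filled points for called genes and triangles for upper bounds of genes at 0 counts. In Direct-78, 12 called genes lie below 0 and EIF4EBP1 above it.

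Markers of liver cells moved in the same comparisons, and their part in the values of FKBP1A and NENF was not tested. Hepatocyte markers were present throughout and summed to 20796, 34374 and 29388 CPM in Direct-78 against 40037 to 64708 CPM in Control-78, with none at 0 in any group. By counts, which depend on the probe, TTR led the list in every group but S3-78, where APOA1 did. In Direct-78, 2 of 6 were called lower (HNF4A and FGB), and the list medians were 0.54, 0.91, −0.10 and −1.41 at 10, 32, 57 and 78 weeks of continuous DCA. In S1-10 and S2-32, where both genes were low, the hepatocyte sums averaged 69531 ± 6463 and 66025 ± 18719 CPM (SD, n = 6 each) against 45489 ± 21094 (n = 4) and 45383 ± 10669 CPM (n = 6) in their controls. The Control-10 mean includes mouse 68 at 14598 CPM, and the other 3 controls held 51920 to 62200 CPM (55786 ± 5594, SD). Mouse 68 was also the lowest of Control-10 in stellate cell (196.4 CPM, others 372.2 or above), macrophage (210.6, others 559.4 or above), endothelial (198.8, others 248.997 or above), lymphocyte (35.99, others 40.1 or above) and erythroid sums (43.1, others 155.5 or above). It was the highest in brain and muscle (35.99 CPM, others 5.74 or less) and pancreas sums (18.9, others 7.32 or less), and inside the range of the others for cholangiocytes (58.99). Their part in its FKBP1A and NENF levels was not tested.

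The calls of the other cell types are listed with their medians in the same order of comparisons. Without Control-10 mouse 68 no gene was called in S1-10, so no S1-10 marker call is made without it. In Direct-78, 11 genes in all were called with the log2 total count as a covariate, against 539. Which marker calls stayed there, those of hepatocytes included, is not given. Of 6 stellate cell and fibroblast markers 1 was called lower in S1-10 (COL1A1) and 2 higher in S2-32 (COL1A1 and COL3A1), with medians of −0.88, 1.25, −0.78 and 0.19. Of 3 cholangiocyte markers 1 rose (KRT19) and 1 fell (SPP1) in Direct-78, with medians of 0.71, 0.33, 0.28 and 2.17. Of 5 macrophage markers CD68 was called higher in S2-32 and lower in Direct-78, where it had 3 counts, with medians of 0.43, 0.34, −0.13 and −1.13. By counts, which depend on the probe, C1QB led the 5 in every group.

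Of 3 lymphocyte markers CD4 was called higher in S1-10 and lower in Direct-78, with 0 counts in Control-10 and in Direct-78, and the medians were 0.63, −0.42, −0.44 and −1.26. No endothelial marker of 4 was called, PECAM1 was at 0 in Direct-78, and the medians were 0.04, 0.03, −0.47 and −0.14 (0.22 with PECAM1 at its bound). Of 3 erythroid markers ALAS2 alone was called, lower in Direct-78, where HBA-A1 and HBB-BS were at 0, with medians of −0.62, −0.65, 0.20 and −4.55 (−1.70 with both at their bounds). Erythroid genes summed to 65.2, 16.2 and 70.3 CPM in the Direct-78 libraries against 314.2 to 868.5 CPM in Control-78. The pancreas list (5 tested; 6.15, −2.78, 0.60 and 2.17) and the brain and muscle list (3 tested; −1.45, 0.19, 0.55 and 1.85) had no call.

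Marker sums also differed between S3-78 and S1-78, where the unadjusted intervals of FKBP1A and NENF lie above 0 but neither gene passed. The part of the markers in those values was not tested. Hepatocyte sums ran from 27819 to 46516 CPM in S3-78 and from 43451 to 74459 CPM in S1-78, with 0 of 6 markers called by edgeR and a median log2 fold change of −0.93. Stellate cell and fibroblast sums ran from 110.8 to 292.4 CPM against 154.4 to 1665 CPM, with 2 of 6 called lower (COL1A1, −2.28, and COL3A1, −2.64). Erythroid sums ran from 13.3 to 187.3 CPM against 33.7 to 496.9 CPM, with 1 of 3 called lower (ALAS2, −2.26). The groups thus overlapped in each of these sums.

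Of 3 brain and muscle markers CKM was called lower (−6.73), a value that turned to 0.59 without S1-78 mouse 36. The cholangiocyte, macrophage, lymphocyte, endothelial and pancreas lists had no call, with medians of −1.32, −0.21, 0.74, −1.10 and −5.94, and no marker was at 0 counts in either group. All 4 marker calls ended with the log2 total count as a covariate (edgeR adjusted p of 0.0656 to 0.162), where COL1A1, COL3A1 and ALAS2 stood at −2.20, −2.23 and −2.15. They also ended without S1-78 mouse 33, 34, 35 or 36 or S3-78 mouse 55, 56 or 59, and those of COL1A1 and CKM without S3-78 mouse 60 (edgeR adjusted p of 0.0504 to 0.858 over these libraries). With RLE factors COL1A1 missed the call (edgeR adjusted p = 0.0682), and with upper-quartile factors COL1A1 and CKM did (0.0728 and 0.0538).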

How the data were processed

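RNA from archived mouse liver sections was counted with the TempO-Seq mouse S1500+ panel. Per the labels, the authors matched reads to probes with Bowtie (mm10) in Partek 10.0.22.0524, and the raw count per gene was deposited for 78 libraries. The authors also deposited 2 tables of normalised signal for the 68 libraries they kept, in which each value is the count plus 1 divided by a median-ratio size factor (DESeq2), with 2205 genes left by their filter in one of them. The 10 libraries left out held 244409 to 658155 counts.

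For the 68 kept libraries and 2205 genes, raw counts were fitted here in 1 edgeR 4.0.16 quasi-likelihood model with TMM factors and 13 groups (R 4.3.3), with 2-sided tests and Benjamini-Hochberg adjustment within each comparison. A gene was called where the adjusted p did not exceed 0.05 and the fold change was above 1.5. Levels are CPM, correlations use log2 CPM (prior count 2), and permutation tests drew 100000 permutations of libraries within groups. The fits were tested on simulated data. Figures were drawn with matplotlib 3.10.9 in Python 3.11.15. The genes and lists were chosen with earlier results of these data known.

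Genes are named by rule: both members, list genes called in at least 1 of the 4 continuous-exposure comparisons or in the same list as a member, the 5 genes per member with the highest Pearson r over 13 group means, and genes called lower, lower and higher in S1-10, S2-32 and Direct-78. The 10 role lists cover FK506-binding proteins, cyclophilins, FKBP12 binding partners, BMP-SMAD signalling and hepcidin, TGF-beta signalling, mTORC1 signalling, calcineurin and NFAT, MAPR and cytochrome b5 proteins, haem synthesis and breakdown, and secreted neurotrophic factors. The 9 marker lists cover hepatocyte, stellate cell and fibroblast, cholangiocyte, macrophage, lymphocyte, endothelial cell, erythroid cell, pancreas, and brain and muscle.

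Alternatives were RLE and upper-quartile factors, other gene filters, all 78 libraries, DESeq2 1.42.0, only the 2 groups compared, depth covariates, thinning, adjusted p alone, and leaving out each library.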

Additional observations from a re-analysis of the deposited data

Results flagged for a closer look

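In 7 of 24 sets (12 groups of 4 to 6 libraries for each of the 2 genes), the highest library lay far above the rest of its group. The gap rule marks libraries and tests neither gene, it marks about 1 set in 20 by chance where values follow a normal curve, and 4 of the 7 sets are in groups that chose the genes. For FKBP1A these were S1-32 mouse 23 (8.60 CPM, next 3.92), Control-57 mouse 82 (48.6 CPM, next 21.1), Control-78 mouse 86 (34.2 CPM, next 13.8) and S3-78 mouse 59 (85.8 CPM, next 25.1). For NENF they were Control-10 mouse 68 (216.5 CPM, next 29.3), S1-10 mouse 18 (36.7 CPM, next 19.4) and Control-78 mouse 86 (81.8 CPM, next 41.3). Control-78 mouse 86 stood out for both genes.

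Most exposed libraries that the authors left out, which enter only the fits with all 78 libraries, held values above every kept control of the same week when all 78 libraries were scaled together. FKBP1A was at 83.9 CPM in S3-57 mouse 52 (control maximum 49.96 CPM), and at 148.9 CPM in S3-78 mouse 58 and 48.03, 51.98 and 77.1 CPM in Direct-78 mice 61, 62 and 63 (control maximum 35.9 CPM), while S2-78 mice 46 and 48, at 8.72 and 22.3 CPM, lay inside the control range and S3-78 mouse 57 had 0 counts. NENF was at 119.2 CPM in S3-57 mouse 52 (control maximum 110.5 CPM). At 78 weeks (control maximum 85.8 CPM) NENF was at 206.4 and 117.0 CPM in S2-78 mice 46 and 48, 210.2 and 156.6 CPM in S3-78 mice 57 and 58, and 207.1 and 197.1 CPM in Direct-78 mice 61 and 63, and Direct-78 mouse 62 was within the control range at 66.5 CPM. These libraries held 244409 to 658155 counts, and depth and exposure cannot be told apart in them.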

How the results depend on the processing

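Each change and count was recomputed under 12 alternative settings and without each library in turn. Among results that answer a comparison, 382 values under the settings kept their sign and call (or moved by less than 1 SD or 1.5 times), 63 moved further and 16 tested values changed sign, and without single libraries 319, 68 and 21, with 1 call gained. Of the changes described without a test, another 6 changed sign under the settings and 3 without single libraries, counted above by how far they moved: with the log2 total count NENF in Direct-78, S1-78 (−0.14) and S2-78 and FKBP1A in S2-78 (−0.44), without the 4 libraries with pancreas genes FKBP1A (−0.37) and NENF (−0.17) in S2-78, and those of S2-78 mouse 47 and S1-78 mouse 32. Among named list genes, the settings left 532 values as they were, ended 72 calls, added 6, turned 14 and moved 4, and leaving out libraries left 458, ended 65, added 4 and turned 9. A call was counted again for each setting or library that ended it. No call of FKBP1A or NENF was gained under a setting. No paired analysis was possible because no mouse number is shared between groups. For values without a stated construction the cause was not tested.

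With DESeq2, called genes numbered 241 in S1-10 (121 as reported), 393 in S2-32 (235), 214 in S3-57 (141), 71 in S1-57 (35), 7 between S3-57 and S1-57 (0), 4 between S2-78 and S1-78 (2), 200 between S3-78 and S1-78 (82) and 148 between S3-78 and S2-78 (36), list calls 5 in S1-10 (3) and 9 in S2-32 (4), BDNF in Direct-78 was 0.0932 and FKBP1A in S1-57 0.0445. With RLE factors these 2 changes were 0.0943 and 0.0392. With upper-quartile factors they were 0.14 and 0.0605, FKBP1A between S3-57 and S1-57 was −0.0288, and S2-32 had 7 list calls.

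With all 78 libraries, called genes numbered 236 in S1-10, 68 in S2-32, 12 in S3-57, 2 in S1-57, 0 between S2-78 and S1-78 and 16 between S3-78 and S2-78, and list calls 1 in S2-32 and 0 in S3-57. Signs turned for BDNF in Direct-78 (0.0975) and S1-10 (−0.95), BMP6 (0.75) and CNTF (0.87) in Direct-78, and GDNF in S3-57 (1.27). With all genes of at least 1 count S3-57 had 3 list calls. With the genes of filterByExpr, FKBP1A in S3-57 was −0.00233 and 48 genes were called between S3-78 and S1-78.

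With the log2 total count as a covariate, FKBP1A was 0.11 in Direct-78, −0.81 in S3-57 and −0.14 between S3-57 and S1-57, and NENF −0.58 in Direct-78, −1.13 in S1-32, −0.45 in S2-78, 0.39 in S3-78, −0.31 between S2-78 and S1-78 and −0.82 in S3-57. EIF4EBP1 (−0.53), FKBP5 (−0.00265) and GDNF (−3.16) turned in Direct-78 and FKBP14 (−0.21) in S3-57. Called genes numbered 72 in S1-10, 223 in S3-57, 11 in Direct-78, 57 in S1-57, 0 between S2-78 and S1-78, 1 between S3-78 and S1-78 and 57 between S3-78 and S2-78, and list calls 2 in S3-57 and 1 in Direct-78. With detected genes as a covariate, FKBP1A was −0.14 in S3-57, and NENF 1.01 in Direct-78, −0.0212 between S2-78 and S1-78 and −0.0533 in S3-57. BDNF in Direct-78 was 0.47, called genes numbered 179 in Direct-78, 1 between S2-78 and S1-78 and 88 between S3-78 and S2-78, and list calls 1 in S3-57 and 8 in Direct-78.

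With only the 2 groups compared, which leaves fewer libraries for the spread, called genes numbered 82 in S3-57, 310 in Direct-78, 2 in S1-57 and 0 in each of the S2-78 against S1-78, S3-78 against S1-78 and S3-78 against S2-78 comparisons, and list calls 5 in S1-10 and 2 in S3-57. Thinned to 541245 counts, called genes numbered 50 in S1-10, 134 in S2-32, 53 in S3-57, 173 in Direct-78, 6 in S1-57, 17 between S3-78 and S1-78 and 18 between S3-78 and S2-78, and list calls 1 in S2-32, 1 in S3-57 and 8 in Direct-78. FKBP1A was −4.23 in S1-32 and −0.13 in S3-57, NENF −0.0260 between S2-78 and S1-78, and CNTF in S1-10 −0.44. Without the 4 libraries with pancreas genes, an alternative chosen after seeing the data, FKBP1A was −0.0659 and NENF −0.67 between S2-78 and S1-78, and called genes numbered 4 between S2-78 and S1-78, 17 between S3-78 and S1-78 and 133 between S3-78 and S2-78.

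Leaving out 1 library at a time gave 0 to 151 called genes in S1-10 (0 without Control-10 mouse 68), 121 to 502 in S2-32, 55 to 184 in S3-57, 216 to 633 in Direct-78, 6 to 36 in S1-57, 0 to 2 between S3-57 and S1-57, 0 to 6 between S2-78 and S1-78, 0 to 258 between S3-78 and S1-78 and 0 to 154 between S3-78 and S2-78. List calls ranged from 0 to 3 in S1-10, 1 to 11 in S2-32 and 1 to 6 in S3-57. FKBP1A ranged from −3.06 to −1.42 in S1-10, −0.18 to 0.45 in S3-57, −0.51 to 0.38 in S1-57, −0.13 to 0.52 between S3-57 and S1-57 and −0.0212 to 1.70 between S3-78 and S2-78. NENF ranged from −2.37 to −0.55 in S1-10, −0.0585 to 0.42 in S3-57, −0.59 to 0.80 between S2-78 and S1-78 and 0.63 to 1.88 between S3-78 and S1-78. BDNF ranged from −0.0823 to 0.38 in S1-10 and −1.20 to 0.0363 in Direct-78, CNTF from −0.0912 to 0.63 in S1-10 and −0.21 to 0.39 in S3-57, and FKBP14 from −0.44 to 0.0421 in S1-10 and −0.0147 to 0.64 in S3-57.

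The r of 0.542 between the members over all libraries ranged from 0.471 to 0.794 over 7 alternatives. In the 7 groups that the choice did not use (r = 0.794) it ranged from 0.619 when thinned to 0.818 with RLE factors (permutation p 1e-05 to 0.00035). The nearest genes shared 1 (FKBP1A) and 2 (NENF) of 5 with Spearman over the means, and 1 and 0 with Pearson over the libraries. FKBP1A in S1-10 rests on 4 to 11 counts a library, and the smallest change that could be detected there was not tested.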

Other observations

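A left-out control was high as well. Control-10 mouse 67, with 634516 counts, held 95.7 CPM of FKBP1A against 4.25 to 68.6 CPM in the kept Control-10 libraries, and 127.8 CPM of NENF against 20.0 to 226.8 CPM, with all 78 libraries scaled together. Control-10 mouse 70, with 352872 counts, held 0 counts of FKBP1A and 108.6 CPM of NENF. With these included, 2 of 6 Control-10 libraries, mice 67 and 68, exceeded 60 CPM of FKBP1A.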
